A study of Caenorhabditis elegans with 2 samples.

Results

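Small ribosomal subunit protein genes of the nematode Caenorhabditis elegans were examined for binding by the zinc-finger protein ZTF-7. They were chosen by name, as the protein-coding genes of the WBcel235 annotation whose symbol starts with rps-, which gave 31 of 19985 protein-coding genes. The list holds rps-2, whose product is a reported partner of ZTF-7. Binding was mapped by ChIP-seq: an antibody pulls down the protein with its crosslinked chromatin, and the DNA is then sequenced. The worms were whole L4 larvae, the last larval stage, of pooled sexes, from strain OP332. The strain has the genotype unc-119(tm4063) III; wgIs332, so the animals of both replicates carry the unc-119 allele and an eGFP-tagged ztf-7 insertion. The labels do not name the promoter of the transgene. The data were 2 biological replicates of 1 group, with no control sample analysed here. Whether a region is specific to ZTF-7 was therefore not tested, and the read depth behind each list is unknown.

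The small subunit of the ribosome binds the mRNA, scans for the start codon and reads codons against tRNA anticodons. Its proteins fold around 1 ribosomal RNA into a head, a body and a platform, and their genes are among the most highly transcribed in growing cells. In nematodes many such mRNAs are trans-spliced: the 5' part of the transcript, the outron, is cut off at an AG and replaced by a short spliced leader. An annotated 5' end can then be the trans-splice site, with transcription starting farther upstream.

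The sequences under the summits, the points of highest enrichment, are shown first because they hold words that several of these genes have in common. Each run below is 121 bases of build ce11 (WBcel235) centred on the IDR summit, read 5' to 3' on the strand of the rps gene, from the RefSeq copy of the assembly. IDR is the irreproducible discovery rate, and the IDR list is the authors' set of peaks past their reproducibility threshold. Capitals mark 2 words of 9 letters on either strand, CGGTAACAC (or GTGTTACCG) and AATACTCAG (or CTGAGTATT). The first pair of genes carries the former, the next 3 genes carry the latter, and rps-1 and rps-12 are shown as strong peaks with neither.
rps-23, chrIV:12391279-12391399, minus strand: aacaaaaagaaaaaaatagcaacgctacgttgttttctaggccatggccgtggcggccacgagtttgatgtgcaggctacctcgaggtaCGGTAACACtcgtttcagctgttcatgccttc
rps-13, chrIII:6375148-6375268, minus strand: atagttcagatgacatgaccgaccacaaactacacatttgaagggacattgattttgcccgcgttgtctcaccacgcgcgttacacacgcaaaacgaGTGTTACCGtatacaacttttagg
rps-0, chrIII:4754300-4754420, minus strand: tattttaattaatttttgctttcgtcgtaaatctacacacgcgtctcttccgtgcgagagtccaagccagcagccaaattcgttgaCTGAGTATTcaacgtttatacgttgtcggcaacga
rps-3, chrIII:6206406-6206526, plus strand: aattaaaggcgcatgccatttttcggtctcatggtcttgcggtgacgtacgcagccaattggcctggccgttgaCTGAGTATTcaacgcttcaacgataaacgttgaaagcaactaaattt
rps-30, chrV:7776302-7776422, plus strand: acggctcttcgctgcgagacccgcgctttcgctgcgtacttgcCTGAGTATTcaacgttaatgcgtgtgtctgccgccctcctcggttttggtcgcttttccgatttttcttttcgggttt
rps-1, chrIII:4475604-4475724, plus strand: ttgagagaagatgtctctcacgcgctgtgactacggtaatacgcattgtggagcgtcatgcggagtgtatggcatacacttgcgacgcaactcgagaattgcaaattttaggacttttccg
rps-12, chrIII:5679063-5679183, plus strand: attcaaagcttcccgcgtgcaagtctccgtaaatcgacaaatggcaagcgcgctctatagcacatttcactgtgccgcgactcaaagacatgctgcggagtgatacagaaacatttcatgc

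An IDR summit lay within 1000 bp of the 5' end of 14 of the 31 rps genes (45.2%). Of all protein-coding genes, 1121 of 19985 (5.61%) had one. Of the large subunit genes, named rpl- and rla-, 25 of 50 had one. All 14 summits were upstream of the rps gene, and in 11 cases they lay between it and a coding gene facing the other way. The other 17 rps genes had no IDR summit within reach. They included rps-2, for which only a weak region of replicate 1 was listed. A summit between divergent genes cannot be given to one of them from these lists. When each IDR summit was assigned only to its nearest coding 5' end, 5 of 31 rps genes (16.1%) kept one, against 4.14% of all coding genes and 16 of 50 large subunit genes (32.0%).

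The signal of a region is the value its peak caller gave it. It compares only within a list, so ranks by signal are used across lists. The IDR peaks carry the signal of the pooled list, which was made from both replicates together. The strongest rps region was at rps-23, which encodes a protein of the decoding centre. It lay on chromosome IV from 12391259 to 12391432 with an IDR signal of 215.4, rank 53 of 1311. It ranked 102 in replicate 1 (signal 64.1) and 52 in replicate 2 (signal 145.6), so both replicates placed it near the top of their 30000 regions. The region at rps-1, whose product sits on the platform, was on chromosome III from 4475578 to 4475744 with an IDR signal of 186.4. It ranked 160 in replicate 1 and 60 in replicate 2. At rps-12, a gene for a protein of the beak of the head, the region was on chromosome III from 5679059 to 5679212 with an IDR signal of 160.5. It ranked 69 in replicate 1 and 115 in replicate 2. These 3 genes were thus among the 160 strongest regions of each replicate.

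A further 7 members were among the 1311 strongest regions of both replicates, a number chosen to equal the length of the IDR list. At rps-28, in the head, the region lay on chromosome IV from 1659085 to 1659408. Its IDR signal was 103.3, and it ranked 178 in replicate 1 and 395 in replicate 2. The region of rps-13, whose product lies at the contact with the large subunit, had an IDR signal of 90.0 and ranked 347 and 429. That of rps-26, which encodes a protein at the mRNA exit, had an IDR signal of 79.8 and ranked 520 and 531. For rps-13 and rps-26 the ranks of the 2 replicates were closer together than for the next 3 genes. At rps-20, also of the head, the IDR signal was 126.5 and the ranks were 594 in replicate 1 and 98 in replicate 2. At rps-0, which encodes the worm form of the laminin receptor-like ribosomal protein RPSA, the IDR signal was 121.5 and the ranks were 818 and 96. At rps-14, on the platform, the IDR signal was 89.2 and the ranks were 753 and 215. These 3 genes were placed far higher by replicate 2 than by replicate 1. The last of the 7, rps-10, a gene for a head protein, had an IDR signal of 71.3 and ranked 886 and 763.

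Another 4 genes had an IDR summit but fell outside the 1311 strongest regions of at least 1 replicate. The region of rps-3, which encodes a protein of the mRNA entry channel, had an IDR signal of 61.6 and ranked 1670 in replicate 1 and 684 in replicate 2. The region of rps-18, a head protein gene, had a signal of 56.2 and ranked 2625 and 612. That of rps-30 had a signal of 54.4 and ranked 1071 and 1951. The weakest was rps-8, with a signal of 50.7 and ranks of 1849 and 1288, just above the weakest IDR peak of the whole list at 49.2. The first gene outside was rps-17, with a pooled signal of 48.6 at rank 1345, in replicate 1 at rank 837 and in replicate 2 at rank 1734. The cutoff of the list fell between these neighbours in the order. At all 14 rps genes the rank in the IDR list equalled that in the pooled list. The 1311 strongest pooled regions also reached 14 rps genes, so membership followed pooled signal here. Across the 14 genes the median IDR signal was 89.6, against 67.7 over the 1121 coding genes with an IDR summit and 86.3 over the 25 large subunit genes.

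**Figure D1:**
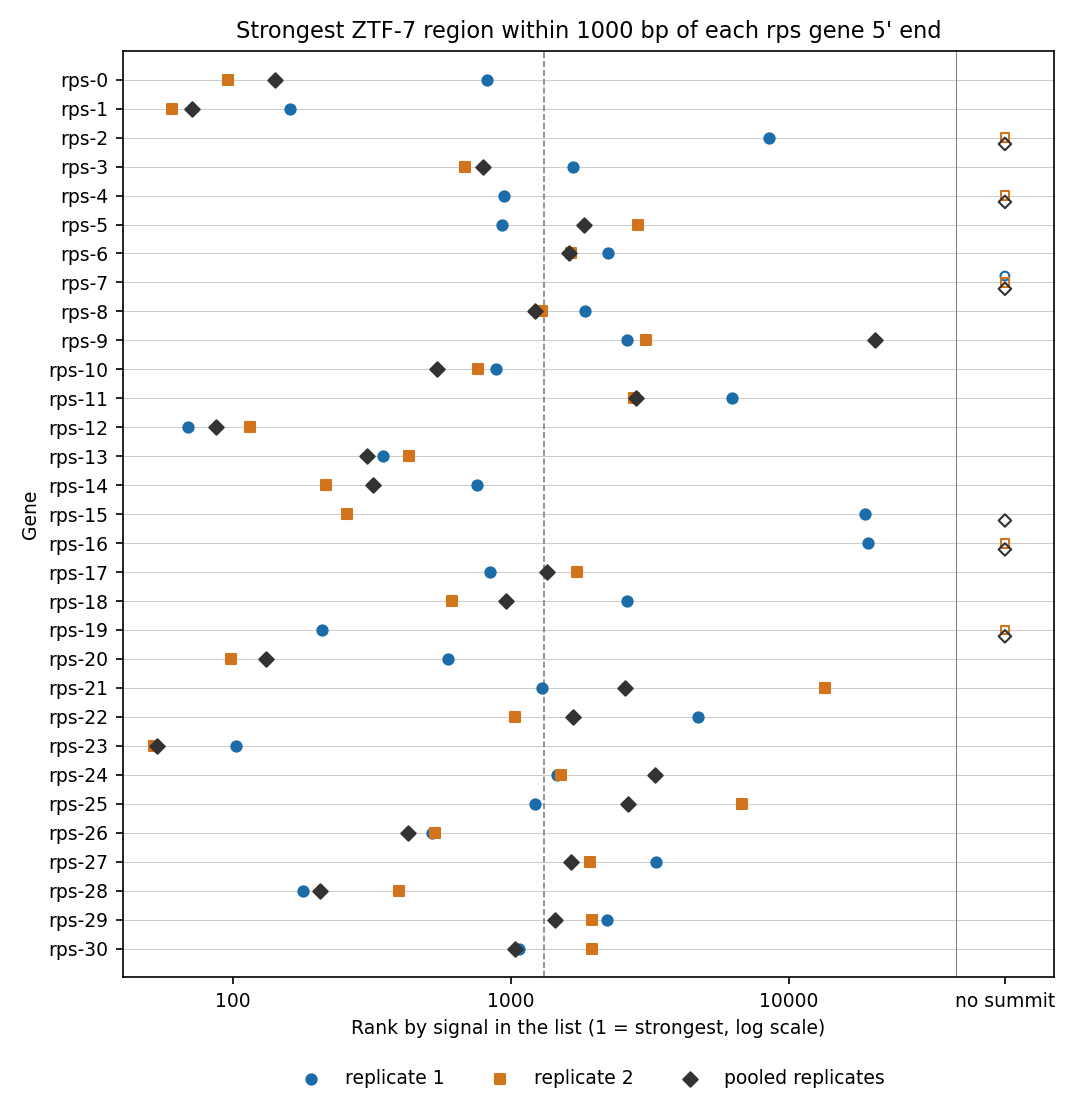
Rank by signal of the strongest region within 1000 bp of each of the 31 rps 5' ends in replicate 1 (circles), replicate 2 (squares) and the pooled list (diamonds), on a log axis. Open symbols at the right mark lists with no summit in reach, and the dashed line marks rank 1311, the length of the IDR list. The 14 genes with a pooled symbol left of the line are those with an IDR summit, while rps-19, rps-4 and rps-15 have a replicate symbol left of it but no pooled region.

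Replicates were then taken alone. Among the 1311 strongest regions of replicate 1, a summit lay by 17 of 31 rps genes (54.8%), against 5.13% of all coding genes. Replicate 2 gave 15 of 31 (48.4%), against 5.42%. Both replicates gave 10 of 31 (32.3%), against 2.88%. By this rule large subunit genes had 17 of 50. With the whole lists of 30000 regions the counts were 30 of 31 in replicate 1 (96.8%, against 47.3%), 26 of 31 in replicate 2 (83.9%, against 40.8%) and 25 of 31 in the pooled list (80.6%, against 40.2%). The pooled list is labelled as peaks and background for input to IDR, so a listed region of low rank need not be a binding site. Most rps genes thus had some listed region, and the members differed mainly in how strong it was. The median rank of the strongest region was 1145 in replicate 1 over 30 rps genes and 900.5 in replicate 2 over 26. Over all coding genes with a region the median ranks were 8730 and 8461. The signals of the 2 replicates correlated with a Spearman coefficient of 0.57 over the 26 rps genes listed in both. That is a description, since the genes share their libraries.

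**Figure D2:**
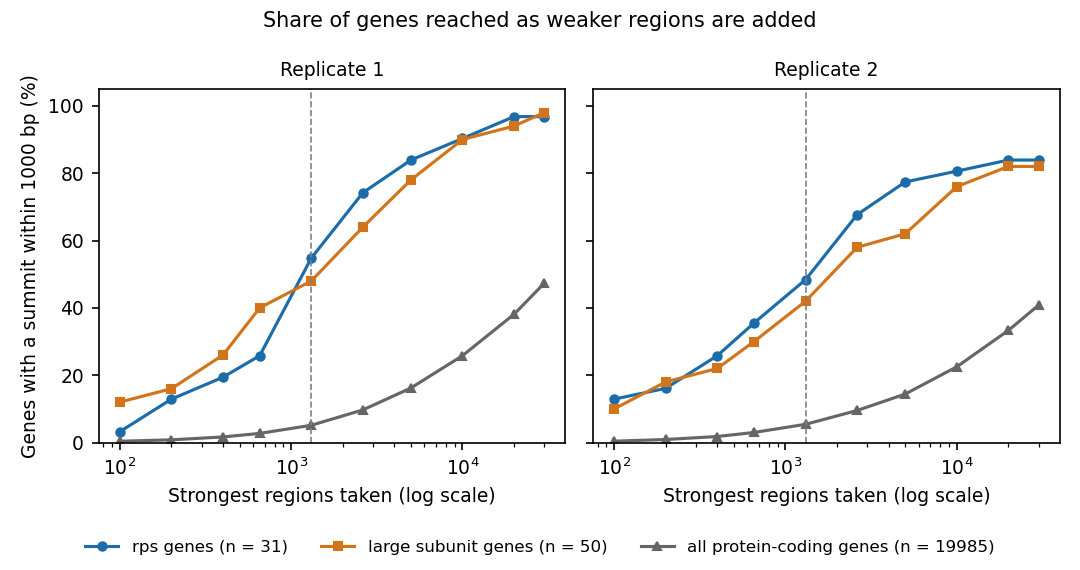
Percent of genes with a summit no more than 1000 bp from their 5' end, as more regions are taken in order of signal, for replicate 1 (left) and replicate 2 (right), with the number of regions on a log axis. The dashed line marks 1311 regions, where rps genes stand at 54.8% and 48.4% and all protein-coding genes at 5.13% and 5.42%.

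Summits at rps genes lay within a narrow band upstream. The 14 IDR summits were 175 to 491 bp upstream of the annotated 5' end, with a median of -273.5 bp (negative is upstream) and quartiles of -337.8 and -250.2 bp. Over the 1121 coding genes with an IDR summit, 987 (88.0%) had the strongest one upstream, with a median of -216.0 bp and wider quartiles of -389.0 and -92.0 bp. The band from 175 to 491 bp upstream was set by the 14 rps summits, so it holds all of them by construction. It held 39.9% of the 1121 coding genes and 19 of the 25 large subunit genes (76.0%). The large subunit genes had a median of -283.0 bp and quartiles of -302.0 and -248.0 bp, closer together than those of the rps genes. A narrow middle range was thus not particular to rps genes. No rps summit of the IDR list was at the 5' end itself. The nearest was at rps-12, 175 bp away, and the farthest at rps-18, 491 bp away.

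The replicate summits of the 14 genes differed by 6 to 67 bp, with a median of 23 bp. Over the 1099 coding genes with an IDR summit and a region in both replicates the median was 26 bp, and 79.4% of them differed by 67 bp or less, so the offsets at rps genes were near those of IDR peaks in general. Of the 26 rps genes with a region in both replicate lists, 24 (92.3%) had summits within 150 bp of each other, against 50.2% of the 6120 coding genes with a region in both. With weaker regions included, nearly all strongest summits of rps genes lay upstream: all 25 pooled summits, 29 of 30 in replicate 1 and all 26 in replicate 2. These counts include the 14 genes with an IDR summit, whose pooled summits are the IDR summits. Over all coding genes with a region the shares upstream were 71.8%, 69.8% and 70.1%. Neither these shares nor the 50.2% come from genes matched for strength. By median rank the rps regions were stronger in every list (1037 against 7759 in the pooled list). Between 150 and 650 bp upstream were 23 of 25 pooled, 27 of 30 replicate 1 and 25 of 26 replicate 2 summits of rps genes. The shares over all coding genes with a region were 40.9%, 37.1% and 40.4%. These limits were not planned, and they enclose the 175 to 491 bp band of the 14 rps IDR summits. The rps shares are therefore partly set by that choice and are a description.

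**Figure D3:**
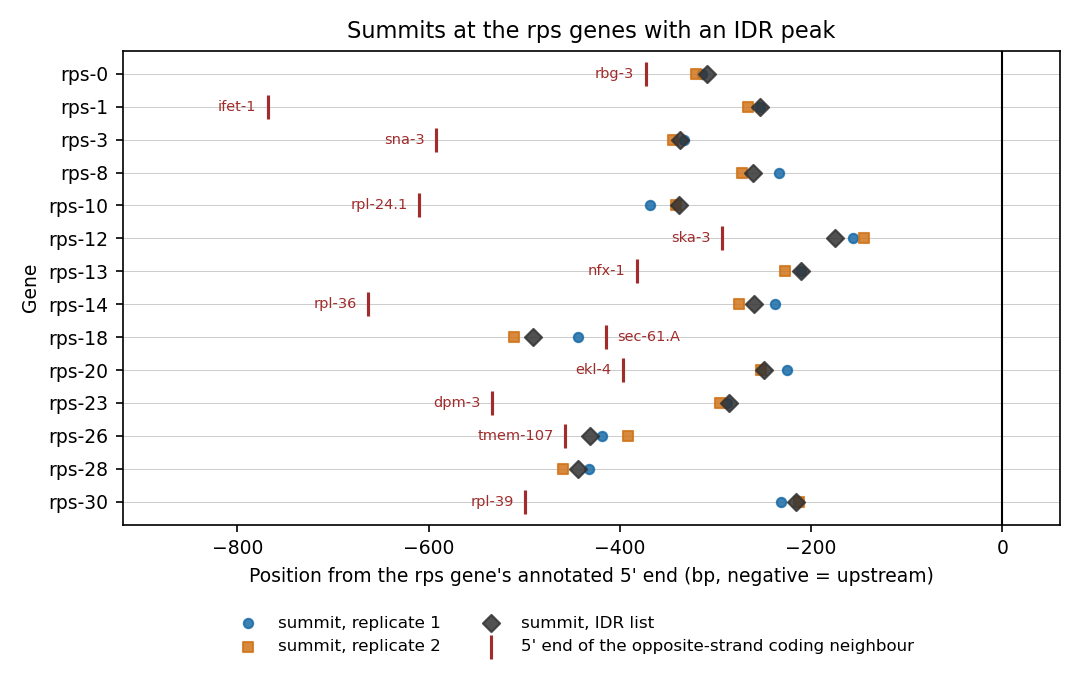
Position of the IDR, replicate 1 and replicate 2 summits from the annotated 5' end of the 14 rps genes with an IDR summit, in bp, with negative values upstream. Vertical marks are the 5' ends of the nearest coding genes on the opposite strand. The IDR summits lie from 175 to 491 bp upstream, and 11 of them lie between the mark and the rps gene.

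The bases at the annotated 5' ends show from where these distances run. An AG stood directly before the 5' end in 28 of 31 rps genes (90.3%), in 41 of 50 large subunit genes (82.0%) and in 27.6% of 19973 nuclear coding genes. The 6 bases TTTCAG, which match the nematode splice acceptor, stood there in 15 rps genes (48.4%) and in 12.3% of coding genes. The exceptions to the AG were rps-22, rps-24 and rps-27. For most rps genes the distance is thus measured from a base that follows an AG, as at a trans-splice site, and the start of transcription was not measured.

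Divergent neighbours shared most rps summits. A coding gene on the opposite strand lay on the far side of the summit, within 1000 bp of it, for 11 of 14 rps genes, against 448 of 1121 coding genes with an IDR summit. In 9 of 14 cases another coding 5' end was nearer to the summit than the rps gene was, against 298 of 1121 (26.6%). The rps-26 summit was 26 bp from tmem-107 and 431 bp from rps-26, and the rps-0 summit was 64 bp from rbg-3 and 309 bp from rps-0. At rps-18 the summit was inside the gene sec-61.A, which encodes a subunit of the protein translocon, in its UTR and 76 bp from its 5' end. Other nearer neighbours were ska-3 at 118 bp, ekl-4 at 148 bp, nfx-1 at 171 bp, dpm-3 at 248 bp and sna-3 at 255 bp. The rps gene was the nearest coding gene at rps-1, where ifet-1 lay 514 bp from the summit, and at rps-8, rps-14, rps-28 and rps-30. Non-coding RNA genes started closer still at some summits, F56F3.11 at 7 bp from the rps-1 summit and B0393.12 at 8 bp from the rps-0 summit.

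Ribosomal protein genes of both subunits faced each other across 3 of the summits. The rps-10 summit lay 338 bp from rps-10 and 272 bp from rpl-24.1. The rps-14 summit lay 260 bp from rps-14 and 403 bp from rpl-36, and the rps-30 summit 216 bp from rps-30 and 283 bp from rpl-39. These 3 summits therefore count for a gene of each subunit. The regions at rps-8 and rps-28 were the clearest one-sided cases, since no coding gene faced them on the other side within 1000 bp of the summit. Of the 14 summits, 10 were intergenic, 3 lay in exons of non-coding RNA genes (F56F3.10, D1007.22, and C26F1.13 with C26F1.14) and 1 in the UTR of sec-61.A.

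The members without an IDR summit split into those with a weaker pooled region and those with none. A pooled region was listed for 11 of the 17, with signals from 48.6 down to 11.4. The strongest were rps-17 (48.6), rps-29 (46.9) and rps-6 (44.3), whose product is a substrate of the S6 kinase. The rps-29 region ranked 2212 in replicate 1 and 1954 in replicate 2, and the rps-6 region 2235 and 1640. Of the 11, 10 had pooled ranks from 1345 to 3303, against 1311 peaks in the IDR list. The other was rps-9, at rank 20515 with a summit 852 bp upstream. The strongest rps-9 summits of the replicates were at 223 bp upstream in replicate 1 (rank 2618) and 298 bp upstream in replicate 2 (rank 3051). These replicate regions overlap each other but not the pooled region 852 bp upstream, so the pooled rank of rps-9 is that of another region. The reason was not tested.

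No pooled region lay by rps-2, rps-4, rps-7, rps-15, rps-16 or rps-19. At rps-2, on chromosome IV from 7925298 to 7926391 on the minus strand, replicate 1 had a region of signal 7.4 at rank 8514, 262 bp upstream. Replicate 2 and the pooled list had none. The gene of the reported ZTF-7 partner thus had 1 region in reach, weaker than the replicate 1 region of most members. No list held a summit by rps-7, and rps-16 had only a replicate 1 region at rank 19333.

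Strong regions of a single replicate accounted for the remaining 3 genes. At rps-19, whose human counterpart is mutated in Diamond-Blackfan anaemia, replicate 1 had a region of signal 49.2 at rank 208, 292 bp upstream, and no other list had one. At rps-4, a gene for a body protein, replicate 1 had a region at rank 944, 273 bp upstream, and no other list had one. At rps-15, in the head, replicate 2 had a region of signal 58.3 at rank 256, 395 bp upstream. The strongest replicate 1 summit by rps-15 was at rank 18854 and lay 912 bp downstream of the 5' end. The regions at rps-19, rps-4 and rps-15 (that of replicate 2) overlapped no pooled region and no region of the other replicate. Of the 1311 strongest regions, 95 of replicate 1 (7.25%) and 3 of replicate 2 (0.229%) were alone in this way.

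By the place of the protein in the subunit, an IDR summit was found for 6 of 13 genes of head proteins (46.2%) and 8 of 18 genes of body and platform proteins (44.4%), with median signals of 87.3 and 89.6. This division follows the known structure of the eukaryotic small subunit and was chosen after the values were seen. By chromosome, an IDR summit was found for 3 of 8 rps genes on I, 0 of 1 on II, 6 of 9 on III, 4 of 10 on IV and 1 of 3 on V, and no rps gene is on X. A snoRNA gene lies within 5 rps genes, rps-4, rps-12, rps-13, rps-23 and rps-29, and 3 of these 5 had an IDR summit.

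Small subunit proteins are also encoded by 2 genes not named rps-. The ubl-1 gene, which encodes a ubiquitin fusion with a small subunit protein, had an IDR summit at -233 bp with a signal of 61.2, at rank 1754 in replicate 1 and 708 in replicate 2. The rack-1 gene, for the head-bound scaffold protein RACK1, had none, and its pooled region had a signal of 46.6 at rank 1465 and a summit at -253 bp. Of 9 genes for small subunit assembly and its regulation, 4 had an IDR summit. They were rbd-1 (signal 87.0), nol-56 (74.9), nol-58 (69.5) and riok-2 (51.8), all factors of ribosome assembly in other eukaryotes. The S6 kinase gene rsks-1 had a pooled region at rank 4243, and ranked 4425 in replicate 1 and 10388 in replicate 2. The pooled region of riok-1 was at rank 13714 with a summit at -983 bp, whereas its replicate 1 region was at rank 1555 with a summit at -96 bp and its replicate 2 region at rank 11113. The ncl-1 gene had ranks of 23622 in the pooled list, 5415 in replicate 1 and 25298 in replicate 2. At fib-1 a region was listed in replicate 1 alone, at rank 425. No list held a summit by let-363, the worm TOR kinase gene.

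The words marked in the sequences above were searched across summits and promoters. They came from all 9-letter words, on either strand, found within 60 bp of at least 3 of the 14 summits and in at most 1% of IDR windows, of which there were 18. The rarest upstream of coding genes were taken, leaving out words that shared a member with one already taken. They were therefore chosen on these summits, and their counts are a description. The word CGGTAACAC lay within 60 bp of the summits of rps-10, rps-13 and rps-23, in 11 of 1289 nuclear IDR windows of this length (0.853%) and in 7 of 28688 windows at pooled summits below the IDR list (0.0244%). The word AATACTCAG lay within 60 bp of the summits of rps-0, rps-3, rps-20 and rps-30, in 6 of 1289 IDR windows (0.465%) and in 29 of 28688 windows below (0.101%). The IDR counts include the rps windows on which the words were chosen, 3 of the 11 and 4 of the 6. The higher share in IDR windows is therefore partly set by that choice. No rps window held both.

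Both words also occurred away from IDR summits. Within 1000 bp upstream of the 5' end, CGGTAACAC was found at 5 of 31 rps genes, 5 of 50 large subunit genes and 72 of 19973 nuclear coding genes (0.36%). The added rps genes were rps-17, 221 bp upstream, and rps-18, 652 bp upstream and 161 bp from its summit. AATACTCAG was found at 5 rps genes, 5 large subunit genes and 139 coding genes (0.696%), the added rps gene being rps-22, 99 bp upstream. The words were chosen for occurring at rps summits and for being rare upstream of coding genes. The higher share at rps genes is therefore partly set by that choice. Among the 67 other coding genes with CGGTAACAC upstream, 17 (25.4%) had an IDR summit, and among the 134 with AATACTCAG, 12 (8.96%) had one. The share over all protein-coding genes was 5.61%. Neighbours that share an intergenic stretch count separately here, so the other genes can include those that face an rps gene across its summit. A link between word and peak was not tested. At the rps genes all 5 copies of AATACTCAG read in the same direction, on the strand opposite to the gene, while CGGTAACAC was found on either strand.

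Common promoter motifs, and TTTCAG as the match to the splice acceptor, were searched on both strands from 250 bases before to 50 after the 5' end. TTTCAG was in 19 of 31 rps promoters (61.3%), 38 of 50 large subunit promoters (76.0%) and 51.7% of all 19973 promoters. TATAAA was in 9 of 31 rps promoters and 37.9% of all. GAGAGA was in 4 (12.9%) against 21.8%, CTGATAA in 3 (9.68%) against 8.15%, GGGCGG in 2 (6.45%) against 7.83%, and CACGTG in 0 against 5.82%. TTTCAG was thus the 1 motif of the 6 found in most rps promoters, as it was in most promoters of all genes. In 15 of the 31 rps genes it stood directly before the 5' end, which lies within the window searched. Within 150 bases on either side of the summit, TTTCAG was in 9 of 14 rps windows (64.3%) and in 30% of all nuclear IDR windows. GAGAGA was in 3 of 14 (21.4%) and in 42.0%. The other 4 motifs were in 1 to 4 of the 14 windows: TATAAA in 28.6% against 26.2%, GGGCGG in 14.3% against 10.8%, CACGTG in 7.14% against 9.62% and CTGATAA in 7.14% against 10.5%. The 121 bases at rps summits had a median GC content of 47.5% (37.2% to 53.7%), near that of all nuclear IDR summits at 44.6% and above that of pooled summits below the IDR list at 30.6%. The promoters at large had a median of 33.0% at rps genes and 34.3% at all coding genes.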

How the data were processed

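The deposited files were peak lists on build ce11 from ChIP-seq of 2 replicates: 30000 regions per replicate, 30000 from the pooled replicates, and 1311 past the IDR threshold. The pooled list is labelled as peaks and background for input to IDR. Signal is the deposited value of each region. The deposited −log10 q was 2.11 at every IDR peak and was not used. The lists hold no read counts. For caller, aligner and cutoff: not given in the sources used here. Lists on build ce10 were not used. Summits were the interval start plus the deposited offset, counted from 1. Genes came from Ensembl release 115 and sequence from RefSeq WBcel235, the same assembly. Each gene took its strongest region whose summit lay at most 1000 bp from its 5' end, and ranks were by signal. No test was run, since there is 1 group and the members and lists were chosen with earlier results of these data known. Named were all members with an IDR summit, rps-2, the 3 strongest others, and some of the genes whose 5' end lay within 1000 bp of a member's summit; rps-4, rps-7, rps-9, rps-15, rps-16 and rps-19, and rps-22, rps-24 and rps-27, were named after their values were seen. The assignment was checked on simulated regions. Alternatives were other windows, list lengths, 5' ends, assignments and each replicate alone. Word windows of 75 and 100 bp were chosen once the data had been seen. The tools were numpy 2.4.6 and pandas 2.3.3 for tables, matplotlib 3.10.9 for figures and scipy 1.17.1, under Python 3.11.15.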

Additional observations from a re-analysis of the deposited data

How the results depend on the processing

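The count of 14 rps genes with an IDR summit was also 14 with windows of 500 and 2000 bp, with any overlap of the region and with any transcript's 5' end, and 10 in the upper 50% of peaks. The 655 strongest pooled regions reached 10 rps genes and 2.91% of all coding genes. That is no separate check, since the IDR peaks carry the pooled signal and the rps genes have the same rank in both lists. With 1 replicate left out, the 1311 strongest regions of the other replicate took the place of the IDR list. These gave 15 to 17 rps genes, not all the same ones: 11 of the 14 were among them in replicate 1 and 13 of the 14 in replicate 2. The count was 5 with nearest coding 5' ends only, since 9 of 14 summits are nearer to another coding gene. The 10 genes in the strongest regions of both replicates were 17 with 2622 regions per replicate and 7 with 655. Of all coding genes, 9.69% in replicate 1 and 9.53% in replicate 2 had a summit among 2622 regions. With 655 regions the shares were 2.71% and 2.99%. The share in both replicates can be no larger than either. The median IDR summit position was -273.5 bp, and the medians over those 15 to 17 genes of single replicates were -295.0 to -288.0 bp, over partly different genes. The median IDR signal of 89.6 was 89.2 with nearest 5' ends only. Of 30 alternatives, 14 gave exactly the reported value. In the motif search, summit windows in place of promoters gave the shares printed with the motifs. No paired analysis was possible because there is 1 group. The absence of a control sample and of read depths limits all values.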

Other observations

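Strong regions of replicate 1 that overlapped no pooled region were more frequent than those of replicate 2. Among the 1311 strongest regions of each, 103 of replicate 1 (7.86%) and 14 of replicate 2 (1.07%) had no overlapping region in the pooled list, although that list holds 30000 regions from both. The rps-19, rps-4 and rps-15 regions belong to these. Beside them, fib-1, the gene for the rRNA methyltransferase fibrillarin, had a replicate 1 region of signal 38.7 at rank 425, with its summit at -50 bp. No summit of replicate 2 or of the pooled list lay within 1000 bp of fib-1. Why such regions are absent from the pooled list was not tested.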
